A study of Rattus norvegicus with 12 samples.

Results

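Circular RNAs (circRNAs) of Upp2 and Dpyd, which encode enzymes of pyrimidine breakdown, were examined in rat liver. A circRNA is a closed loop made when a splice site is joined backwards to an upstream one, and it is counted from reads across this back-splice junction. The members are the entries of the deposited circRNA table whose host gene is Upp2 or Dpyd, with the entries under an Ensembl gene identifier that share a transcript or a junction with them. They are 58 of 21876 entries, 52 of 21068 junctions and 2 of 6022 host genes: 6 entries on 6 junctions for Upp2, and 52 entries on 46 junctions for Dpyd.

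The 12 libraries came from livers of wild-type Wistar rats. The relapse group (2 libraries) had sleeve gastrectomy and later a return of diabetes, the sleeve gastrectomy group has 5 libraries, and the sham-operated group has 5. Sleeve gastrectomy removes most of the stomach. All groups were made diabetic in the same way, by a diet with 60% of its calories from fat over 4 weeks, a 16 h fast and then 35 mg/kg of streptozotocin, which destroys the insulin-producing beta cells. Only rats with fasting glucose over 16.7 mmol/L on day 3 were used. The sleeve gastrectomy livers were taken at 3 months. For the relapse and sham groups the labels name no sampling time. No non-diabetic group was analysed here. The labels do not say that each library is a separate animal, so an SD measures the spread between these libraries, which may be technical.

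Uridine phosphorylases such as Upp2, a form found mainly in liver, split uridine into uracil and a sugar phosphate. Dihydropyrimidine dehydrogenase (Dpyd) then reduces uracil and thymine, the rate-limiting step of base breakdown, and it also inactivates the drug fluorouracil. Dihydropyrimidinase (Dpys) and beta-ureidopropionase (Upb1) open the ring and release beta-amino acids. The liver is a main site of this pathway, and the table places both hosts in the KEGG pathway of pyrimidine metabolism. Linear RNA had been digested with RNase R, so the counts measure circles and not the mRNA or the enzyme.

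The libraries held 18176 to 37229 back-splice reads, and levels are given per 1000000 of these reads (RPM). A count of 0 allowed up to 80.6 RPM in the deepest library and up to 165 RPM in the shallowest, and these limits cover counting error only. Of 15 hepatocyte markers, 12 had circRNA reads, and Apoa1, Ttr and Ahsg were at 0. The list summed to 23439.6 to 23933 RPM in relapse, 26287 to 41255 after sleeve gastrectomy and 29409 to 42143 in sham, so the relapse libraries lay below all others. Of the markers of other cells, 4 of 11 for macrophages, 6 of 10 for endothelium, 4 of 10 for stellate cells and 2 of 9 for lymphocytes had reads. The highest sum among these 4 lists in any library was 1029 RPM. None of the 7 cholangiocyte and 11 pancreas and gut markers was read. In whole liver, fewer cells of a type and less RNA per cell cannot be told apart.

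Upp2 circles came mainly from 2 junctions on the plus strand of chromosome 3 (build Rnor_6.0, positions counted from 1, exon numbers of transcript ENSRNOT00000035158). CircRNA1643, from exon 3 to exon 6 (44823074 to 44833052, 4 exons), had 436 of the 656 reads. CircRNA1644, of exons 5 and 6 (44830694 to 44833052), had 185. CircRNA7400 (exons 4 to 6, from 44826663) had 14 reads and circRNA1642 (exons 3 and 4, to 44826776) had 11. The entries ciRNA945, which starts upstream at 44810827, and ciRNA1862, from 44822911, are typed as intronic, yet both end at the end of exon 6; they had 8 and 2 reads. The end of exon 6 thus took part in 5 of the 6 junctions and in 98.3% of the reads, whereas the start varied: 68.1% of the reads began at exon 3 and 28.2% at exon 5.

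Dpyd circles were spread far more widely along chromosome 2, over 17 starts and 18 ends between 221859620 and 222688226 on the plus strand. They covered 1 to 19 exons where typed as exonic, and their genomic spans ran from 110 to 413984 bases. Exon numbers are those of ENSRNOT00000086125 where not stated otherwise. CircRNA1920 (exons 18 to 21, 222400675 to 222474889) led with 201 of 662 reads, followed by circRNA1921 (exons 20 and 21, from 222473927 to the same end) with 110. The third was ciRNA944 (222243692 to 222260453) with 79 reads. It is typed as intronic, but it runs from within the intron after exon 15 to the end of exon 16, the end shared by 3 other Dpyd junctions. CircRNA5104 (exons 20 to 22, 222473927 to 222537482) had 38. The remaining 42 junctions had fewer than 20 reads each and 234 in all, and 22 of the 46 were read in a single library. The end of exon 21, at 222474889, closed 8 junctions with 49.7% of the reads.

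**Figure D1:**
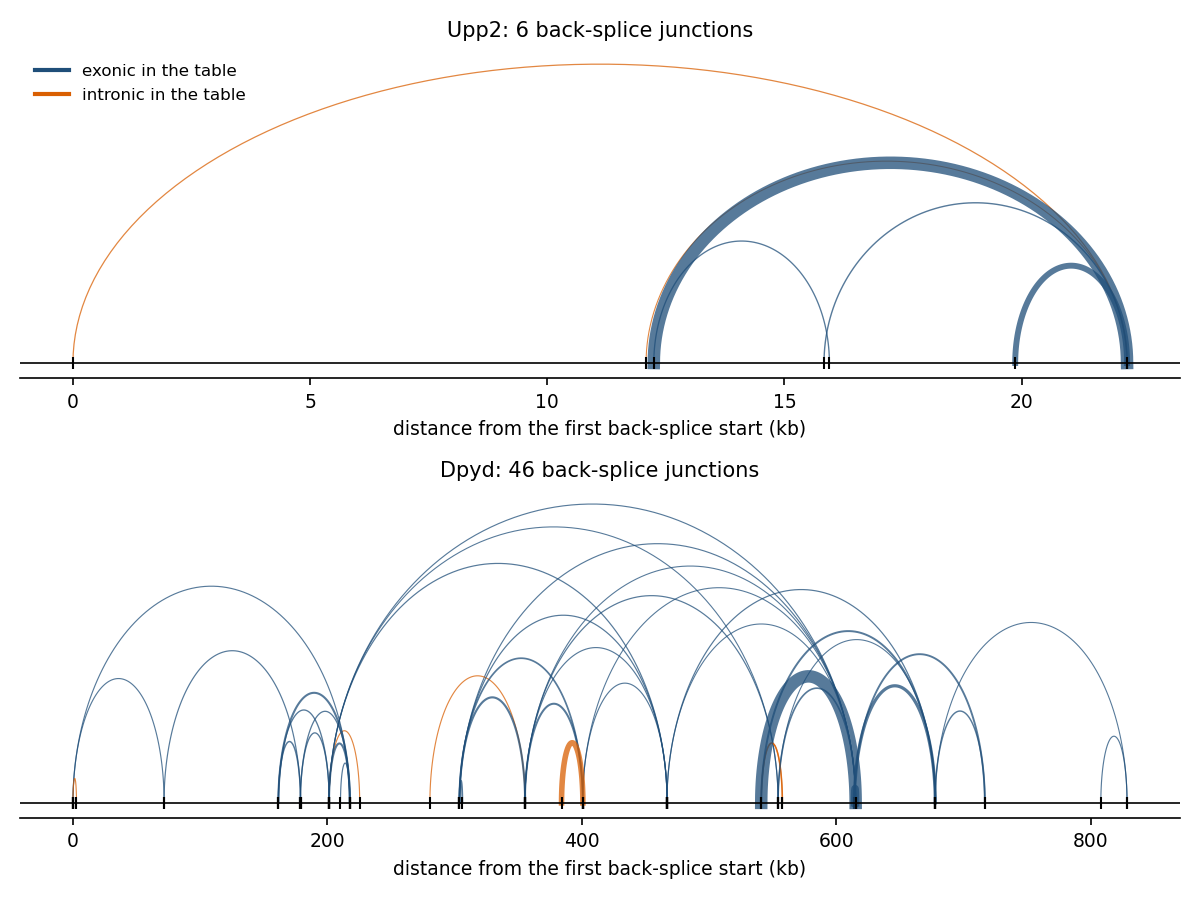
Back-splice junctions of Upp2 (top) and Dpyd (bottom). The x axis is the distance in kb from the first back-splice start, each arc joins the start and end of 1 junction, its width grows with the reads summed over 12 libraries within the gene, its height grows with its span, and colours give the type in the table. Upp2 arcs meet at 1 end with 645 of 656 reads, whereas Dpyd has 46 junctions, led by circRNA1920 with 201 reads.

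Upp2 and Dpyd were chosen by their place in the pathway with values of these libraries known, and Upp2 had been selected on its summed reads, which differed between sleeve gastrectomy and sham. Their levels in all 3 groups are therefore given as a description, with no test. Summed over junctions, Upp2 had 1299 and 2095 RPM in relapse 1 and 2. Sleeve gastrectomy libraries 1 to 5 had 2363, 884, 1348, 1409 and 1507 RPM, and sham libraries 1 to 5 had 3277, 3961, 5153, 2206 and 2789.5 RPM. Sham 3 was the highest and sleeve gastrectomy 2 the lowest of the 12. The sleeve gastrectomy and sham groups met at 1 point, where sleeve gastrectomy 1 lay above sham 4 (0.374% of tested hosts lay wholly below sham), while both relapse libraries lay below all sham libraries and within the sleeve gastrectomy range.

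The Upp2 means were 1697 ± 563 RPM in relapse (SD, n = 2), 1502 ± 537 after sleeve gastrectomy (SD, n = 5) and 3477 ± 1137 in sham (SD, n = 5), from 102, 180 and 374 reads. From low to high the order was sleeve gastrectomy, relapse, sham; the lower pair differed by less than either SD, and both lay below sham by more than the sham SD. In the edgeR fit over all hosts the log2 fold change was −1.22 (SE 0.27) for sleeve gastrectomy over sham. It was 0.17 (SE 0.35) for relapse over sleeve gastrectomy and −1.04 (SE 0.36) for relapse over sham. The last 2 share the relapse libraries and the first and last share the sham libraries. Counted from the lowest among all tested hosts, these fold changes stood at percentiles 5.08, 63.4 and 14.9 in the same order. Without relapse 1 the relapse over sham value was −0.65 and without relapse 2 it was −1.52, and for relapse over sleeve gastrectomy these were 0.55 and −0.31. Without relapse 2 the median of all hosts also moved, to −0.35 and −0.33. That fit tested 1665 hosts in place of 1338, so the medians cover different sets of hosts.

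Both genes passed the filter on low counts. For scale, edgeR's quasi-likelihood test called 2 of 1338 hosts (0.149%) between sleeve gastrectomy and sham, and Upp2 was 1 of them by the selection itself. That call was lost in DESeq2, with a minimum count of 10, with host names as written, with 2 groups alone and with SRPBM library sizes, each of which called 0 hosts, and in 8 of 10 fits without 1 library. With all 12 libraries, edgeR called 1 host (0.0747%) between relapse and sleeve gastrectomy and 2 hosts (0.149%) between relapse and sham, none of them Upp2 or Dpyd. In 4.78% of all tested hosts both relapse libraries lay below all sham libraries, as in Upp2. The relapse libraries also had the lowest hepatocyte marker sums, and the part of this in the Upp2 level was not tested. On the authors' SRPBM scale the constants per read (0.151 to 0.178) vary much less than the back-splice totals (18176 to 37229). There relapse 1 and 2 had 4.05 and 11.8, against 7.51 to 17.2 in sham libraries, so that these groups overlapped. Sleeve gastrectomy 1 (8.80) and 5 (7.81) also lay within the sham range there.

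**Figure D2:**
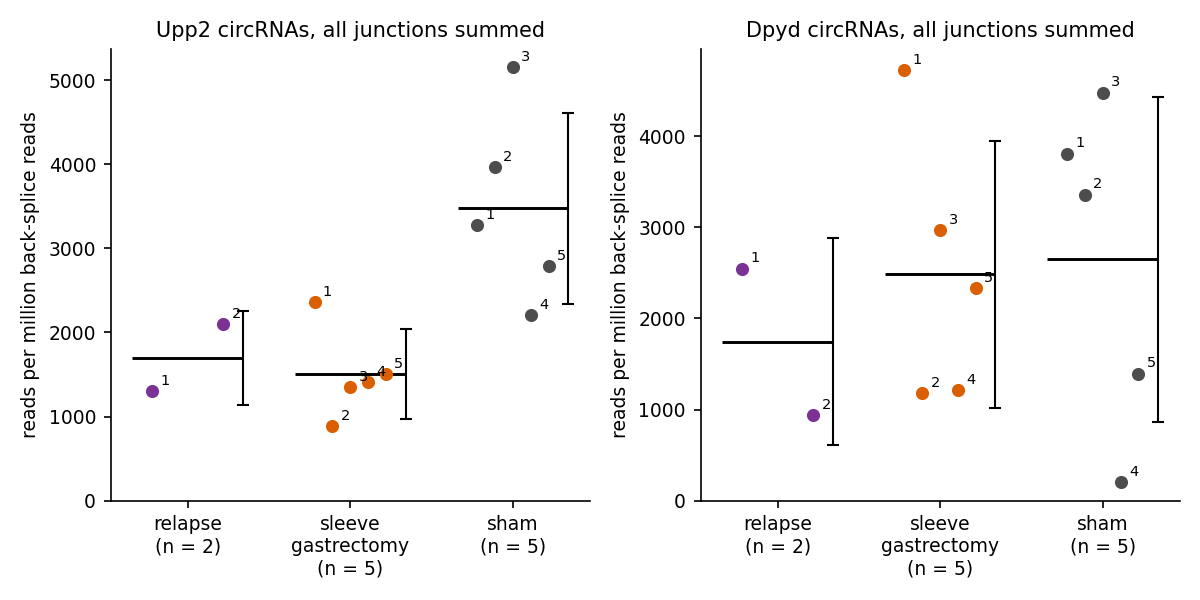
Upp2 (left) and Dpyd (right) circRNAs in RPM, all junctions summed, in relapse (n = 2), sleeve gastrectomy (n = 5) and sham (n = 5) libraries. Points are libraries labelled by replicate number, lines are means and bars are 1 SD. Upp2 averaged 1697, 1502 and 3477 RPM, and Dpyd in sham ranged from 201 to 4476 RPM.

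The leading Upp2 circle, circRNA1643, had 866 and 1397 RPM in the relapse libraries. It had 1039.6, 688, 647, 1278 and 1096 RPM in sleeve gastrectomy libraries 1 to 5, and 2151, 2476, 3696, 1404 and 1859.7 RPM in sham libraries 1 to 5. On the RPM scale all relapse and sleeve gastrectomy libraries lay below all 5 sham libraries, relapse 2 only just under sham 4. On the SRPBM scale this separation was lost: relapse 2 had 7.86, sleeve gastrectomy 4 had 6.11 and sleeve gastrectomy 5 had 5.68, against 4.78 to 12.3 in sham libraries. Means were 1131 ± 375 RPM in relapse (SD, n = 2), 949.7 ± 273 after sleeve gastrectomy (SD, n = 5) and 2317 ± 865 in sham (SD, n = 5). Of 1519 tested junctions, 0.527% lay wholly below sham on the RPM scale after sleeve gastrectomy and 5.33% in relapse. CircRNA1643 held 436 of the 656 reads on whose sum Upp2 was selected, so its separation from sham follows in large part from that selection.

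The shorter circle of exons 5 and 6, circRNA1644, had 379 and 698 RPM in the relapse libraries. Sleeve gastrectomy libraries 1 to 5 had 992, 197, 647, 131 and 308 RPM, and sham libraries 1 to 5 had 1059, 1045, 989, 802 and 744 RPM. Sleeve gastrectomy 1 fell within the sham range and the other 4 below it, and both relapse libraries lay below all sham libraries in RPM. Of 1519 tested junctions, 5.33% lay wholly below sham in relapse. CircRNA1644 held 185 of the 656 reads on whose sum Upp2 was selected, so its lower level than sham follows in part from that selection. On the SRPBM scale relapse 2, at 3.93, lay within the sham range of 2.57 to 4.89. The means were 539 ± 226 RPM in relapse (SD, n = 2), 455 ± 360.2 after sleeve gastrectomy (SD, n = 5) and 928 ± 145 in sham (SD, n = 5).

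The share of the leading circle was compared next. CircRNA1643 took 66.7% of the Upp2 reads in each relapse library, 44.0 to 90.7% (median 72.7%) after sleeve gastrectomy and 62.5 to 71.7% (median 65.7%) in sham. The group means, 66.7%, 66.6% and 66.04% (n = 2, 5 and 5), were nearly equal. The lowest sleeve gastrectomy share rests on 22 of 50 reads and the highest on 39 of 43, and whether the spread differs between groups was not tested. The minor circRNA1642 had 1 read in relapse, 0 after sleeve gastrectomy and 10 in sham, and circRNA7400 had 0, 3 and 11.

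**Figure D3:**
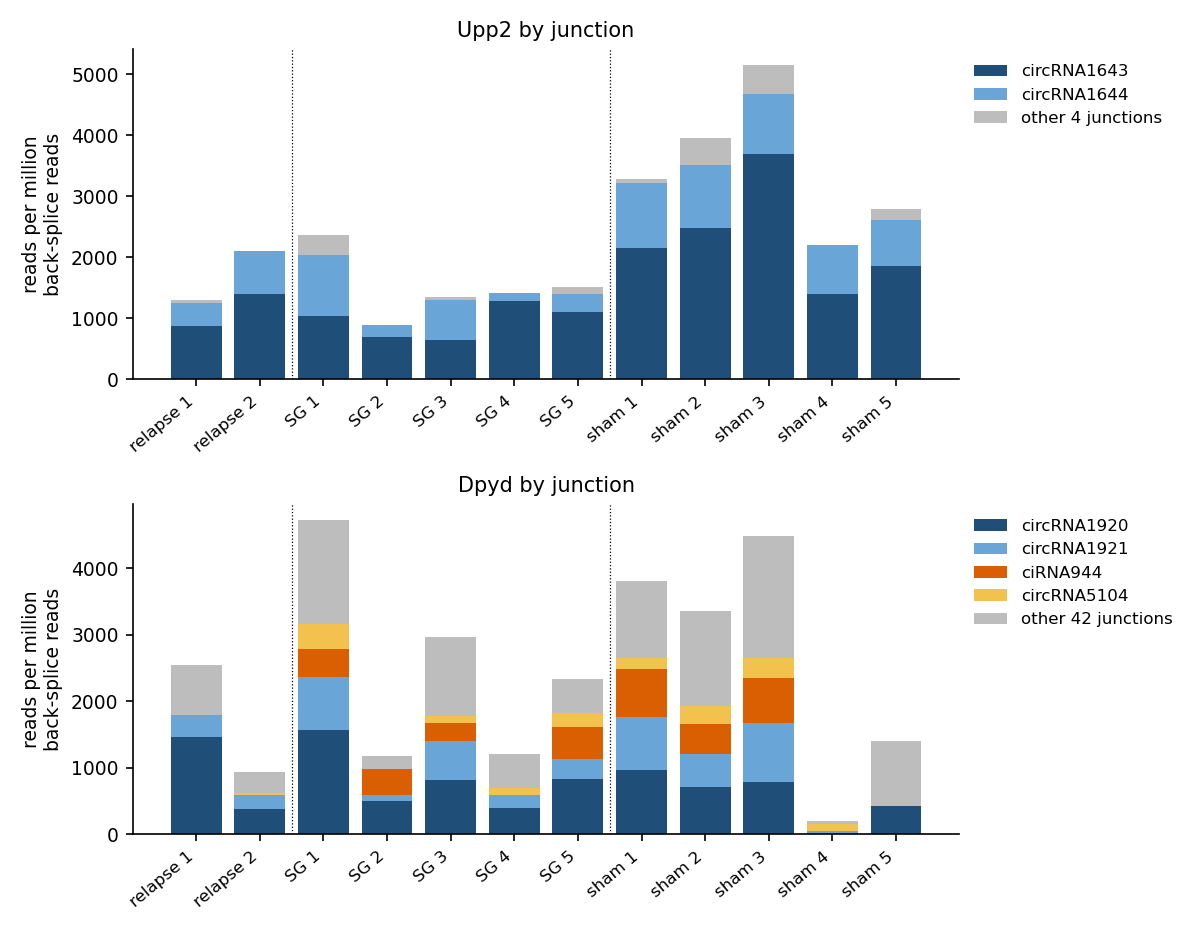
Upp2 (top) and Dpyd (bottom) circRNAs in RPM in each library, stacked by junction; SG is sleeve gastrectomy, and dotted lines part relapse, sleeve gastrectomy and sham. CircRNA1643 (dark blue) averages 1131, 949.7 and 2317 RPM, with relapse 2 (1397 RPM) next to sham 4 (1404 RPM) and the groups overlapping on the SRPBM scale, and the Dpyd stack is nearly empty in sham 4.

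Dpyd had 2544 and 940.1 RPM in relapse 1 and 2. Sleeve gastrectomy libraries 1 to 5 had 4726, 1179, 2966, 1212 and 2328 RPM, and sham libraries 1 to 5 had 3806, 3356, 4476, 201 and 1395 RPM. The groups overlapped fully, and the lowest library was sham 4, with 4 reads of its 19943, while its Upp2 reads numbered 44. Means were 1742 ± 1134 RPM in relapse (SD, n = 2), 2482 ± 1466 after sleeve gastrectomy (SD, n = 5) and 2647 ± 1785 in sham (SD, n = 5), in this order from low to high, and no neighbours differed by more than an SD. Without sham 4 the sham mean was 3258 ± 1325 RPM (SD, n = 4).

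The log2 fold changes of Dpyd were −0.14 (SE 0.67) for sleeve gastrectomy over sham, −0.58 (SE 0.93) for relapse over sleeve gastrectomy and −0.72 (SE 0.93) for relapse over sham. The first was 0.10 when identifier entries were left out, which hold 156 of the 662 Dpyd reads (23.6%). It was 0.08 with host names as written, 0.10 with a replicate block, 0.01 with SRPBM library sizes, and 0.05 to 0.10 without sleeve gastrectomy 2 or 4 or sham 1 or 3, so its sign is not settled. Of all values above 0, 38.1% were single reads in symbol entries but 2.26% in identifier entries. Single reads may thus be missing from identifier entries.

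The leading Dpyd circle, circRNA1920, had 1462 and 376 RPM in the relapse libraries. It had 1559, 491, 809, 393 and 822 RPM in sleeve gastrectomy libraries 1 to 5, and 959.9, 715, 781, 0 and 418 RPM in sham libraries 1 to 5. Relapse 1 and sleeve gastrectomy 1 were high, and the groups overlapped. CircRNA1921, which ends at the same site, averaged 269.8 ± 77.7 RPM in relapse (SD, n = 2), 399.9 ± 292 after sleeve gastrectomy (SD, n = 5) and 445 ± 410 in sham (SD, n = 5).

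The junction ciRNA944 was read in 4 of 5 sleeve gastrectomy libraries, with 269.7 to 479 RPM there, and in sham 1, 2 and 3, with 440.1 to 728 RPM. It had 0 reads in both relapse libraries, in sleeve gastrectomy 4 and in sham 4 and 5. As an identifier entry it may lack single reads, so these zeros allow some level of the circle. The end of exon 21 took 70.2 and 68.6% of the Dpyd reads in the relapse libraries, 48.5 to 54.0% after sleeve gastrectomy and 25.0 to 50.4% in sham. All junctions with this end are symbol entries. Identifier entries add to the totals alone, with 14 of 82 reads in relapse, 55 of 284 after sleeve gastrectomy and 87 of 296 in sham. The differences in share thus depend in part on them. The 95% Wilson intervals of the relapse shares, 56.0 to 81.3% and 52.0 to 81.4%, both meet those of all 5 sleeve gastrectomy libraries, of sham 1 and of sham 4.

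The other genes of pyrimidine metabolism were examined next. Of 54 listed genes, 21 had a read. The filter on low counts kept 5 of these 21, beside 1338 of all 6022 hosts with a read. The 5 were Dpys, Abat and Aldh6a1 of the breakdown route and the nucleoside transporters Slc28a2 and Slc29a1. From symbol entries alone the filter kept 2 listed genes, and identifier entries may lack single reads. None of the 5 passed the edgeR test in either direction in any comparison (0 at an unadjusted p under 0.05, and 0 in DESeq2). The smallest adjusted p was 0.997 between sleeve gastrectomy and sham, 1 between relapse and sleeve gastrectomy and 0.851 between relapse and sham (edgeR, Benjamini-Hochberg over 1338 hosts). The median log2 fold changes of the 5 were 0.50, −0.05 and 0.31 in these comparisons, beside −0.00082, −0.05 and −0.08 for all tested hosts. Above 0 were 5, 2 and 3 of them, and below 0 were 0, 3 and 2. Apart from Dpys, their SEs for sleeve gastrectomy over sham ran from 0.99 to 1.44, so these tests could miss sizeable differences. Of 9 synthesis genes, Ctps1 had 1 read and Ctps2 10. Of 17 salvage genes 6 had reads, led by the uridine kinase Uck2 with 7.

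Dpys, which opens the ring that Dpyd has reduced, was the best read of them, with 512 reads. It had 2219 and 2068 RPM in the relapse libraries. It had 2363, 1572, 1618, 1474 and 1883 RPM in sleeve gastrectomy libraries 1 to 5, and 1787, 1540.5, 2290.2, 1203 and 1488 RPM in sham libraries 1 to 5. The groups overlapped, with means of 2144 ± 107 RPM in relapse (SD, n = 2), 1782 ± 358 after sleeve gastrectomy (SD, n = 5) and 1662 ± 408 in sham (SD, n = 5). The log2 fold change of sleeve gastrectomy over sham was 0.08 (SE 0.27, edgeR adjusted p = 0.997), and that of relapse over sham was 0.31 (SE 0.34, edgeR adjusted p = 0.98).

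Abat, a transaminase of beta-alanine, had 148 ± 56.4 RPM in relapse (SD, n = 2), 154 ± 141 after sleeve gastrectomy (SD, n = 5) and 16.6 ± 23.6 in sham (SD, n = 5), from 9, 19 and 2 reads. Aldh6a1, which oxidises methylmalonate semialdehyde from thymine and valine, had 3, 20 and 11 reads in these groups, all 11 of sham in sham 4. Slc29a1, an equilibrative nucleoside transporter, had 325 and 376 RPM in the relapse libraries, 0 to 393 after sleeve gastrectomy and 0 to 186 in sham. The concentrative transporter Slc28a2 had 242 ± 342, 429.6 ± 541 and 381 ± 257 RPM (SD, n = 2, 5 and 5). For Abat and Slc29a1 both relapse libraries lay above all sham libraries, as in 5.31% of tested hosts, and neither passed (edgeR adjusted p = 0.895 and 0.851). The log2 fold change of Abat was 2.78 (SE 1.44) for sleeve gastrectomy over sham and 2.72 (SE 1.67) for relapse over sham. The other listed genes of breakdown with reads were Enpp3 with 21, Enpp1 with 8, Entpd5 with 6, the nucleotidases Nt5c2 with 5, Nt5c3b with 1 and Nt5e with 1. Upb1, the cytidine deaminase Cda and the second uridine phosphorylase Upp1 had no circRNA reads in the table used here.

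**Figure D4:**
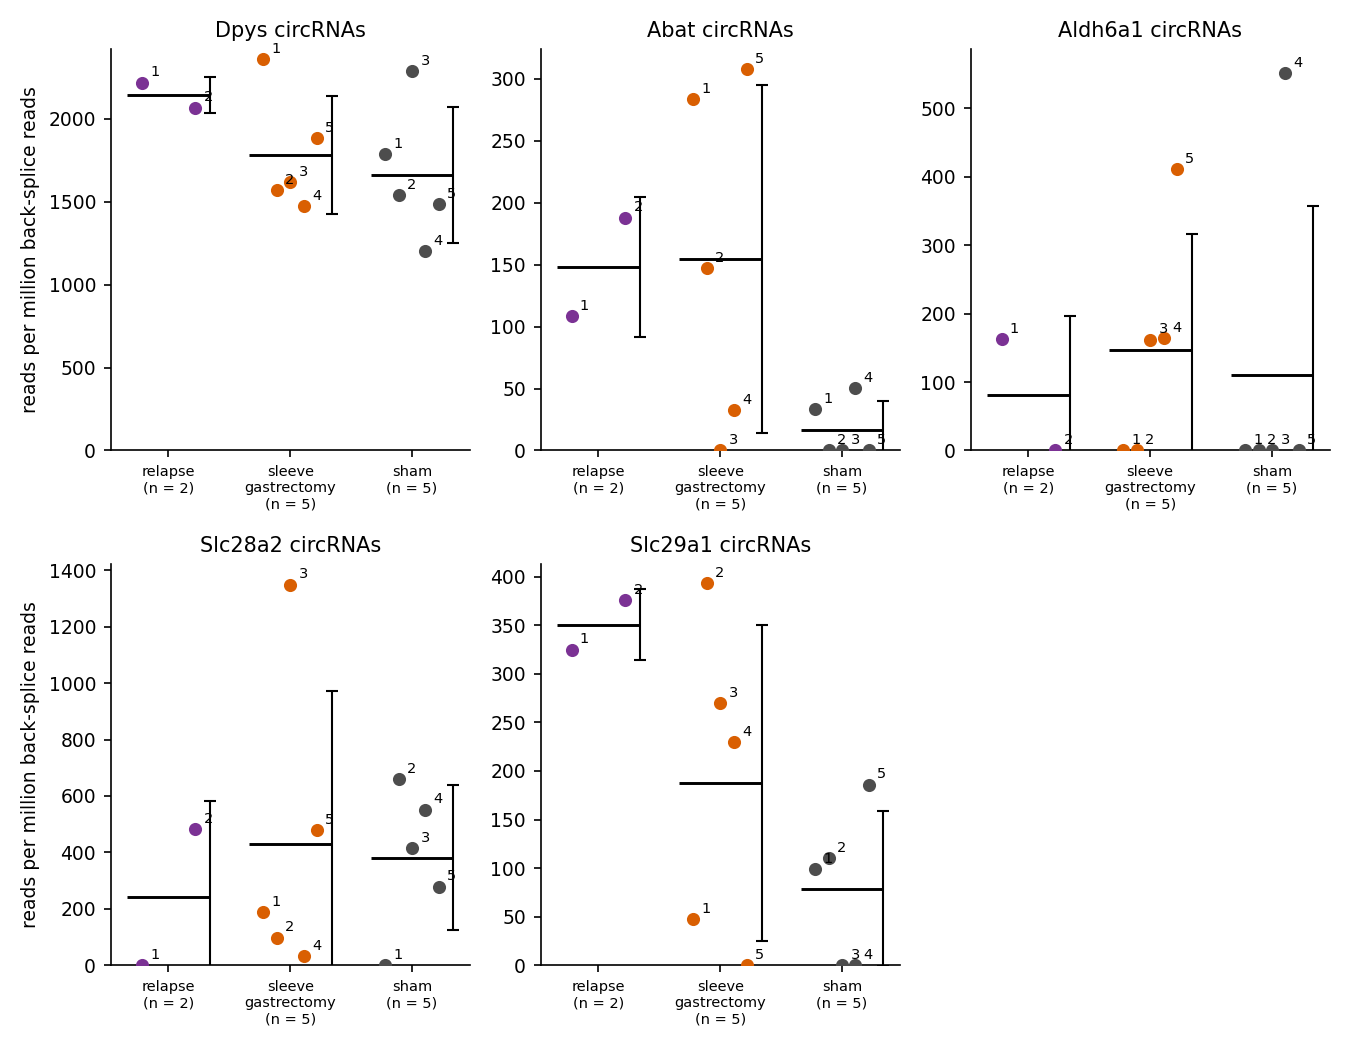
The 5 tested hosts of the pyrimidine list in RPM, in relapse (n = 2), sleeve gastrectomy (n = 5) and sham (n = 5) libraries. Points are libraries labelled by replicate number, lines are means and bars are 1 SD. Bars are cut off at 0. Dpys averages 2144, 1782 and 1662 RPM with overlapping groups, and the other 4 rest on few reads, with zeros in several libraries.

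**Figure D5:**
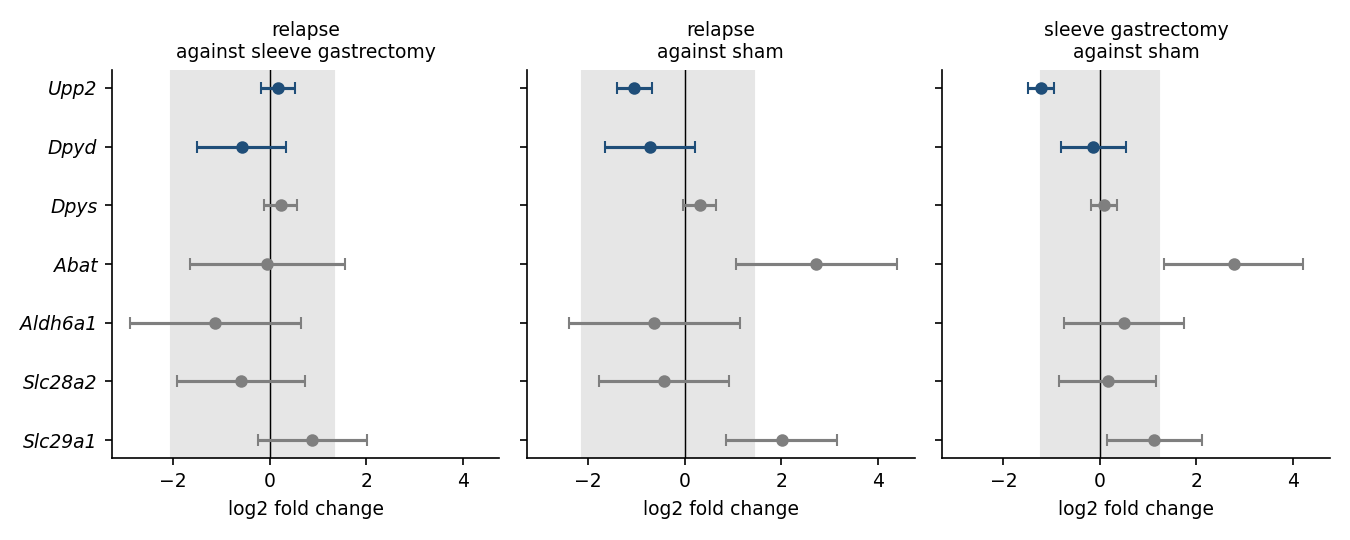
Log2 fold changes from the edgeR fit with 1 SE for Upp2 and Dpyd (blue) and the 5 tested hosts of the list (grey) in the 3 comparisons, the first-named group over the second. The shaded band spans the 5th to 95th percentile of 1338 tested hosts. Upp2 is at −1.04 for relapse over sham, within the band, and −1.22 for sleeve gastrectomy over sham, at its lower edge. Dpys is at 0.31 and 0.08 in the same panels.

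Likeness to other hosts was measured as Pearson's r of log2 CPM, counts scaled to the library size, over the 12 libraries, against 1295 tested hosts named by a symbol. It is a description, since the libraries share depth and group differences. The hosts most like Upp2 were Pik3c2g, a phosphoinositide kinase (r = 0.80), Ptpn2, a tyrosine phosphatase (r = 0.80, 33 reads), and Akr1c14, a hydroxysteroid dehydrogenase (r = 0.77, 64 reads). Pik3c2g averaged 3073 ± 288 RPM in relapse (SD, n = 2), 3462 ± 789 after sleeve gastrectomy (SD, n = 5) and 5449.9 ± 1134 in sham (SD, n = 5). It was picked by likeness to Upp2, itself selected on a difference between sleeve gastrectomy and sham. Its similar order of groups thus follows in part from the choice. Dpyd stood at rank 274 in likeness to Upp2, with r = 0.33.

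The hosts most like Dpyd were Wwc1, a scaffold protein of Hippo signalling (r = 0.93, 182 reads), Hmgcs1, of cholesterol synthesis (r = 0.80, 39 reads), and Slc2a2, the liver glucose transporter (r = 0.80, 108 reads). In sham 4, where Dpyd had 4 reads, Wwc1 had 2, Hmgcs1 0 and Slc2a2 1, against 13 to 25, 1 to 10 and 8 to 18 reads in the other sham libraries. Sham 4 was the lowest Dpyd library, and these hosts were picked by r over the same libraries. Their low counts there thus follow in part from the choice. Wwc1 averaged 594 ± 232 RPM in relapse (SD, n = 2), 727 ± 244 after sleeve gastrectomy (SD, n = 5) and 585 ± 283 in sham (SD, n = 5).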

How the data were processed

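Liver RNA depleted of ribosomal RNA and digested with RNase R was sequenced, per the labels' protocols. The deposited table gives the back-splice read count of each circRNA entry in 12 libraries, and SRPBM, a normalised signal that the authors computed; here it equalled the count times 1 constant per library (0.151 to 0.178 per read). The submitters' processing notes name cutadapt 1.9, TopHat2 2.0.10 and FastQC and the build Rnor_6.0. How back-splice reads were called, and whether duplicates were removed, is not given in the sources used here. Starts counted from 0 are printed from 1.

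Counts were summed per junction and per host. Ensembl identifiers, with all their entries, were joined to the symbol of the same gene description, or else of a shared transcript or junction (1449 of 1696 identifiers). For Upp2 and Dpyd, only identifier entries sharing a transcript or junction with a symbol entry were joined. Another 3 Dpyd entries (30 reads) share neither and were left out. Host sums were fitted with edgeR 4.0.16 in R 4.3.3 (TMM, robust quasi-likelihood fit over 3 groups, minimum count 5 and total 15, Benjamini-Hochberg FDR 0.05), after the script was tested on simulated data. RPM divides by all back-splice reads of a library. SE is the log2 fold change over the root of F. DESeq2 1.42.0, other filters, other host sums, fits to 2 groups, a replicate block and leaving out each library were alternatives.

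Upp2, Dpyd and the gene lists were chosen with earlier results of these data known, so the levels of both genes have no p-value. Genes of the pyrimidine list were named if past FDR 0.05, otherwise the 3 with the smallest p in each comparison, with each breakdown gene that had a read. Slc28a2, Ctps1, Ctps2 and Uck2 were named after their values were seen. For each of Upp2 and Dpyd the 3 hosts of highest r are named. Intervals and zero limits cover counting error only, since reads without molecular identifiers are not independent molecules.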

Additional observations from a re-analysis of the deposited data

Results flagged for a closer look

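Among 57 sets of 5 libraries, 5 held a library set apart by Dixon's test at the 95% level (critical value 0.71). The rate of about 1 in 20 by chance holds for normally distributed values, not for low counts with ties, so these flags are descriptive. For Dpyd, 54.0% of the reads of sleeve gastrectomy 1 ended at the exon 21 site, against at most 50.0% in the other sleeve gastrectomy libraries. The 95% Wilson interval of the sleeve gastrectomy 1 share, 44.3 to 63.4%, covered the shares of those libraries. In sham 4, 0% of the 4 Dpyd reads began at the exon 18 start of circRNA1920, against at least 24.6% in the other sham libraries. Aldh6a1 had 552 RPM in sham 4 and 0 in the other sham libraries. Sleeve gastrectomy 1 also stood apart for Hmgcs1, at 378 RPM with the next library at 108 RPM, and for Ptpn2, at 284 RPM with the next at 65.5 RPM. These rest on 8 against 2 reads for Hmgcs1 and 6 against 2 reads for Ptpn2.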

How the results depend on the processing

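The number of hosts called was small and moved with the processing. Between sleeve gastrectomy and sham, where 2 hosts (Dennd1b and Upp2) were called and 50 had an unadjusted p under 0.05, 1 (Upp2) was called from symbol entries alone. None was called with DESeq2, a minimum count of 10, host names as written, 2 groups alone or SRPBM library sizes. Leaving out 1 library gave 0 to 2 calls, and Upp2 was no longer called without sleeve gastrectomy 2, 3, 4 or 5 or sham 1, 2, 3 or 5. Between relapse and sleeve gastrectomy (1 call, 58 at an unadjusted p under 0.05), no filter gave 2 calls, and DESeq2, a minimum count of 10, symbol entries alone, names as written, 2 groups alone and SRPBM sizes gave 0. Between relapse and sham (2 calls, 79 at an unadjusted p under 0.05), a minimum count of 10, symbol entries alone, names as written, 2 groups alone and SRPBM sizes gave 1. Leaving out 1 library gave 0 to 1 and 0 to 5 calls in these comparisons, and a lone relapse library was assumed to vary like the other groups. The cause was not tested. The pyrimidine list had 0 calls in every alternative run that kept at least 2 libraries in each group, but some runs tested few of its hosts. Between sleeve gastrectomy and sham, 5 were tested in the main fit. Only 2 were tested with a minimum count of 10, symbol entries alone, names as written or 2 groups alone. The rest could not be called in those runs.

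Without 1 library, the Upp2 log2 fold change ran from −1.40 to −1.05 for sleeve gastrectomy over sham, from −0.31 to 0.55 for relapse over sleeve gastrectomy and from −1.52 to −0.65 for relapse over sham. For Dpyd these ranges were −0.48 to 0.10, −1.30 to −0.04 and −1.42 to −0.17. Under the 9 other alternatives Upp2 ran from −1.24 to −1.01, 0.08 to 0.38 and −1.09 to −0.64. SRPBM library sizes, SRPBM values of single junctions and the inclusion of all Dpyd entries were chosen after seeing the data. The SRPBM sizes moved the median of all hosts to 0.17 for sleeve gastrectomy over sham, 0.09 for relapse over sleeve gastrectomy and 0.26 for relapse over sham.

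Libraries with the same number did not deviate together over all tested hosts (correlations −0.09 to 0.04, and 0 of 10 correlated best with their own number). Such values, taken over many hosts of low count, cannot show whether these libraries share more than a number, which was not tested. With a replicate block, 2, 1 and 3 hosts were called in the 3 comparisons, Upp2 was at −1.17, 0.08 and −1.09, and Dpyd at 0.10, −1.09 and −0.99. The SE of Dpyd was 0.36, 0.53 and 0.51 with the block, against 0.67, 0.93 and 0.93 without it.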

Other observations

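The 3 further entries of the Dpyd gene record that share no transcript or junction with a symbol entry had 30 reads. CircRNA6371 had 25 of them: 0 and 2 in relapse 1 and 2, 4, 0, 4, 0 and 0 in sleeve gastrectomy libraries 1 to 5, and 8, 4, 3, 0 and 0 in sham libraries 1 to 5. CircRNA6372 had 3 reads, all in relapse 2, and circRNA10723 had 2, both in sleeve gastrectomy 3.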
